A study of Mus musculus with 35 samples.

Results

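The 10 genes Gata6, Adgre1, Icam2, Prg4, Timd4, Fn1, Serpinb2, Selp, Lyz1 and Lyz2 are described here in single cultured mouse peritoneal macrophages. They were taken by gene symbol from the gene column of each deposited count table, and all 10 were listed once in both 32285-row tables and in the 35624-row table. The transcriptome of 35 single cells was measured by SMART-seq2, a full-length RNA sequencing method for single cells. Some cells were taken whole, and others by scMeT-seq, where a little cytoplasm of the living cell is first drawn through a nano-capillary for the metabolome and the rest of the cell is sequenced. All cells came from the peritoneal cavity of 6-month-old male C57BL/6 mice. They were kept for 24 h in serum-containing medium, and non-adherent cells were washed away. Per the study's text the lactate and AZD3965 experiments were sampled by scMeT-seq, whereas the sample titles give the technique only for the technique comparison. The lactate experiment held 8 control and 8 lactate cells, and lactate was given at 10 mM for 72 h. The technique comparison held 2 whole control cells, 3 whole lactate-treated cells and 4 lactate-treated scMeT-seq cells. The AZD3965 experiment held 5 lactate cells and 5 lactate+AZD cells, where 300 nM AZD3965, an inhibitor of the lactate transporter MCT1, was given with lactate. The labels named no animal or culture for any cell, so each group counted as 1 sample, cells were not tested against each other, and every interval below is a 95% interval for counting error only. Reads were amplified by 20 PCR cycles without molecular identifiers and were not independent molecules, so that the true error is wider.

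Resident, or large, peritoneal macrophages are the main macrophage of the unstimulated peritoneal cavity. Their identity depends on the transcription factor GATA6, which is switched on by retinoic acid made by neighbouring mesothelial and fibroblastic cells, and they carry high surface F4/80 (encoded by Adgre1), ICAM2 and TIM4 (encoded by Timd4). Prg4, Fn1, Serpinb2, Selp and Lyz1 are further genes known to be highly expressed in them, whereas Lyz2 is expressed by macrophages in general. Fibroblasts and mesothelial cells also make fibronectin (Fn1) and lubricin (Prg4), and platelets and endothelial cells make P-selectin (Selp) and ICAM2, so each gene was read beside Lyz2 and beside markers of those cells.

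The total count per cell ran from 58444 to 851417, lowest in the AZD3965 experiment (58444 to 175450) and highest in the technique comparison (494520 to 851417). All 18 general macrophage markers had a count in 28 of the 35 cells. Fibroblast and mesothelial markers, summed, reached 10% of the summed macrophage markers in 4 cells, which are said below to stand apart. These were the control cell CTL32 (1884%), the lactate+AZD cell W14 (67.9%), the control cell CTL30 (26.5%) and the lactate cell Lactic29 (17.3%), and the next cell, W5, was at 6.58%. The data went against the macrophage label in CTL32, where the 18 macrophage markers summed to 2442 CPM (reads assigned to the gene, scaled to a common total per cell of 1e+06) and the 14 fibroblast markers to 45846 CPM. In the other 3 cells the macrophage markers summed to at least 30896 CPM. Of the 14 mesothelial markers, Msln, Krt8, Krt18 and Krt19 had no count in any of the 35 cells. Upk3b, Upk1b and Lrrn4 had counts in W14 only. W14 had a count of 8 of the 14, at 2206 CPM in sum. Wt1 had a count in 5 cells and reached 528 CPM, in CTL30. Of the 20 small peritoneal macrophage genes, 14 had a count in at least 1 cell, among them Ccl9 in 34 cells, H2-DMa in 28, H2-Ab1 in 27, Itgax in 22, Cd74 in 20 and Mrc1 in 11, and the other 6, Ccr2, Irf4, Retnla, Cd226, Fcrls and Mgl2, had none in any cell. No pair of cells had identical counts, and no cell name occurred in more than 1 table.

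The 10 genes covered a wide range of levels. Per kb of exon over all 35 cells, Lyz2 was at 32912 CPM per kb, followed by Lyz1 at 1662, Serpinb2 at 1468, Adgre1 at 479, Fn1 at 284, Prg4 at 56.9, Icam2 at 25.1, Timd4 at 2.89, Selp at 1.78 and Gata6 at 1.1 CPM per kb. Lyz2 was the highest of the 10 per kb in 34 cells, and Serpinb2 was in CTL32. Neighbours in that order were often exchanged within single cells. Lyz1 lay above Serpinb2 in 21 cells and below it in 14, Serpinb2 above Adgre1 in 25 and below in 10, and Adgre1 above Fn1 in 24 and below in 11. Lyz2 lay above Lyz1 in all 35 cells, Fn1 above Prg4 in 33 and below in 2, and Icam2 above Timd4 in 23 and below in 1, with neither counted in the rest.

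**Figure D1:**
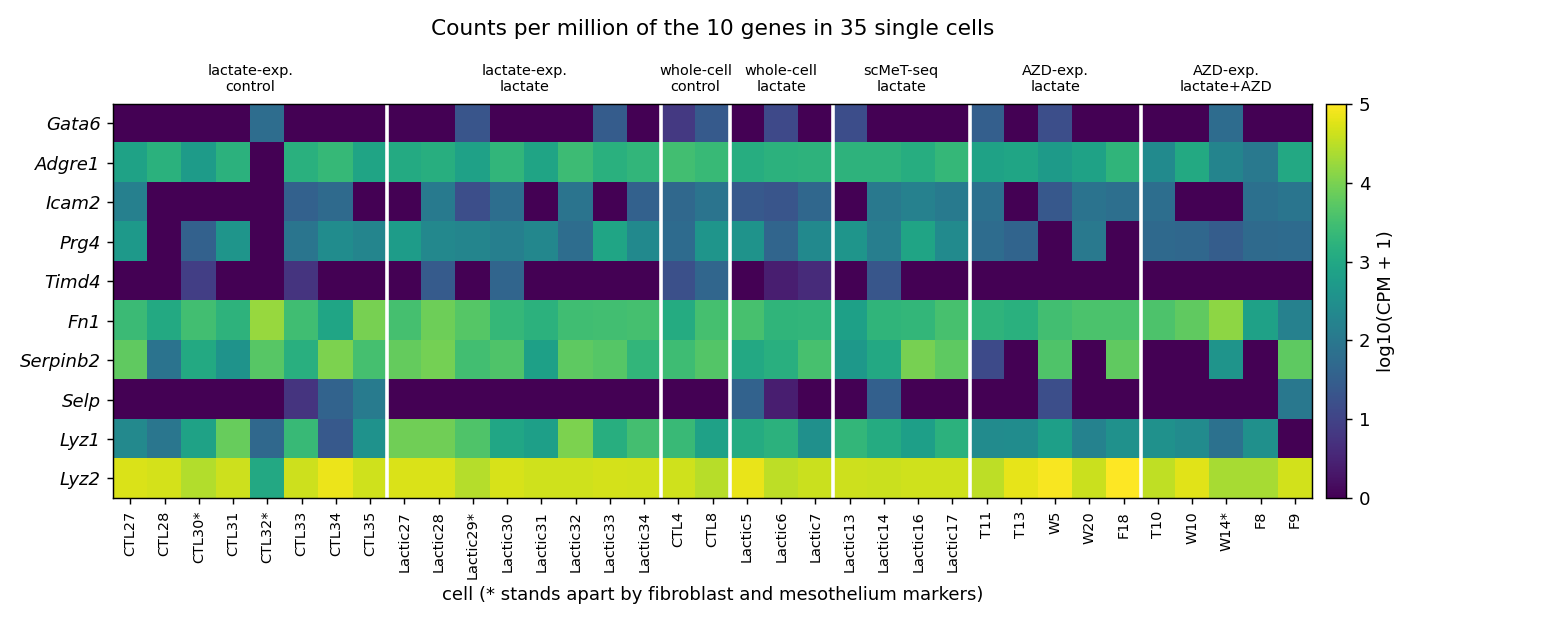
Heat map of log10(CPM + 1) for the 10 genes (rows) in the 35 cells (columns), ordered by group and separated by white lines, with an asterisk at the 4 cells that stand apart. Lyz2, Fn1, Adgre1 and Lyz1 are filled in nearly every column, Gata6, Timd4 and Selp in few, and CTL32 is dark for Adgre1 and dim for Lyz2.

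Detection split the genes into a common and a rare class. Fn1 and Lyz2 had a count in all 35 cells, Adgre1 and Lyz1 in 34, Prg4 in 31, Serpinb2 in 30 and Icam2 in 23. Gata6 had a count in 10 cells (28.6%, interval 14.6% to 46.3%), Timd4 in 9 (25.7%, 12.5% to 43.3%) and Selp in 8 (22.9%, 10.4% to 40.1%). With each cell thinned to the smallest total of 58444 counts, the expected number of cells with a count was 7.25 for Gata6, 4.91 for Timd4 and 5.71 for Selp, against 21.5 for Icam2, 30.5 for Prg4 and 29.6 for Serpinb2. A cell without a count of these genes can hold up to 3 counts, which is 51.3 CPM in the shallowest cell (F8) and above most of the levels of Gata6, Timd4 and Selp measured where they were found. In the lactate experiment 3 counts were 6.52 (Lactic32) to 11.1 CPM (CTL27), and in the technique comparison 3.52 (CTL4) to 6.07 CPM (Lactic5).

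**Figure D2:**
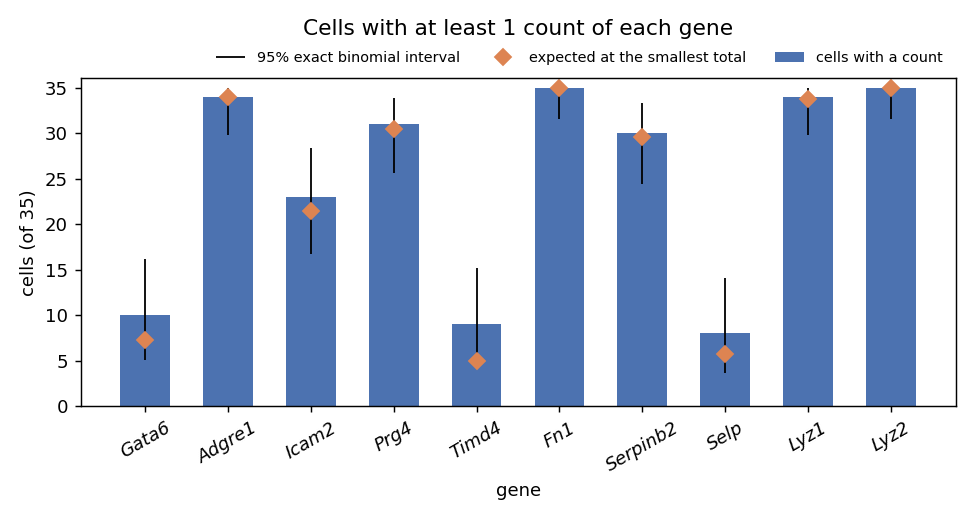
Bars give the number of the 35 cells with at least 1 count of each gene, vertical lines the exact binomial 95% interval, and diamonds the number expected if every cell had 58444 counts. Gata6, Timd4 and Selp reach 10, 9 and 8 cells, against 7.25, 4.91 and 5.71 expected at the smallest depth.

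Lyz1 and Lyz2 encode the P and M forms of lysozyme C, the enzyme that cleaves bacterial cell wall peptidoglycan, and Lyz1 is the form known to be high in large peritoneal macrophages. They are neighbouring genes on the minus strand of chromosome 10 in mm10, Lyz2 at chr10:117277331-117282321 and Lyz1 at chr10:117287797-117292868, with 5475 bases between them. Because the reads of near-identical genes can be exchanged in alignment, the first 300 of their 444 coding bases are shown (GENCODE M21, transcripts Lyz1-201 and Lyz2-201, mm10), 5′ to 3′, with the 20 bases that differ in capitals.
Lyz1: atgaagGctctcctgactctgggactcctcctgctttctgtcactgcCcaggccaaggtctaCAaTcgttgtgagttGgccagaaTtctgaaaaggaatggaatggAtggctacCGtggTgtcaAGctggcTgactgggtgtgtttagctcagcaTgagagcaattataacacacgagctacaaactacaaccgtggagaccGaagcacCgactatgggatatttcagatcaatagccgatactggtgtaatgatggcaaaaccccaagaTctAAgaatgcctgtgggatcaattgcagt
Lyz2: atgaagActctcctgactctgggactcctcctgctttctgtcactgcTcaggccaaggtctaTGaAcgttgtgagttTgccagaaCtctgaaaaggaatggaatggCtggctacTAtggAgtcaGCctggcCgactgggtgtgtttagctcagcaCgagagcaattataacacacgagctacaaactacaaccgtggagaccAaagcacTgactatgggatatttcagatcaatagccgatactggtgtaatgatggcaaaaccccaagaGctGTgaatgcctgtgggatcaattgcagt
Over the whole coding sequence 22 bases differed, so that 95% were identical. Of 1114 windows of 150 bases along the Lyz1 transcript, the length of a read, none was found without a mismatch in the Lyz2 transcript. The fewest mismatches per window ran from 1 to a median of 8. Reads of either gene are therefore separable by few bases in places, and the split between the genes rests on the authors' alignment.

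Over the 35 cells Lyz2 had the lowest coefficient of variation of the 10 genes, 0.41, followed by Adgre1 at 0.56, and Selp had the highest, 2.72. In the lactate experiment its lowest, median and highest levels were 1049, 42937 and 71157 CPM in control cells and 27501, 46531 and 53267 CPM in lactate cells, and the lowest control and the lowest lactate value were those of CTL32 and Lactic29, which stand apart. In whole cells Lyz2 was at 44043 and 29305 CPM in the controls CTL4 and CTL8 and at 68315, 31235 and 39892 CPM in Lactic5, Lactic6 and Lactic7, which had lactate. The 4 scMeT-seq cells lay between 39680 and 44203 CPM. Among all cells that do not stand apart, Lyz2 ranged from 21713 to 100538 CPM, with a median of 44203 CPM.

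Lyz1 varied far more from cell to cell. Its lowest, median and highest levels were 23.5, 287 and 6996 CPM in the 8 control cells and 651, 3704 and 10179 CPM in the 8 lactate cells. All 8 lactate cells lay above the control median, but the groups overlapped, since the control cells CTL31 (6996 CPM) and CTL33 (2365 CPM) lay above several lactate cells. The share of Lyz1 in the counts of both lysozyme genes ran from 0.03% to 14.3% in control cells and from 1.45% to 19.0% in lactate cells, with medians of 1.82% and 9.86%. In the AZD3965 experiment this share was at most 0.79% in the 5 lactate cells and at most 1.48% in the 5 lactate+AZD cells, and F9 had no Lyz1 count beside 4029 Lyz2 counts. The share was thus not fixed across cells. Over the 16 cells of the lactate experiment, which are of 1 table and have unequal depths, Spearman's rho between Lyz1 and Lyz2 was -0.07.

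**Figure D3:**
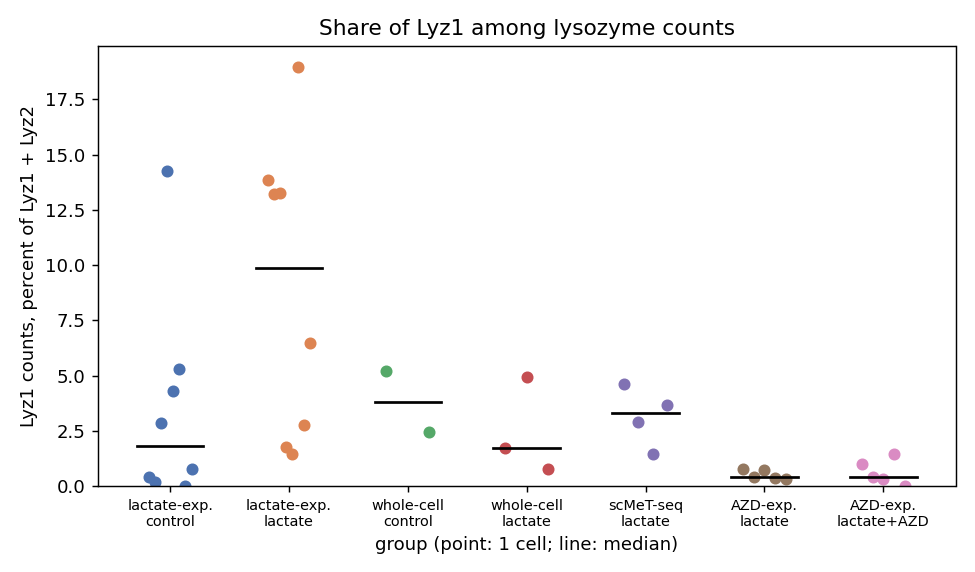
Each point is 1 cell, the vertical axis is Lyz1 as a percent of Lyz1 and Lyz2 counts, and lines are group medians. Lactate cells of the lactate experiment spread from 1.45% to 19.0%, and both groups of the AZD3965 experiment lie below 1.5%.

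Gata6, the transcription factor of the resident identity, was found at low counts. It had 22 counts in 1 of the 8 control cells of the lactate experiment, CTL32 (60.9 CPM), and 20 counts in 2 of 8 lactate cells, Lactic33 (27.9 CPM) and Lactic29 (19.6 CPM). In the technique comparison it was at 5.87 and 25.0 CPM in both whole control cells, at 11.4 CPM in 1 of 3 whole lactate-treated cells (Lactic6) and at 14.1 CPM in 1 of 4 scMeT-seq cells (Lactic13). In the AZD3965 experiment it was at 31.4 and 15.0 CPM in the lactate cells T11 and W5 and at 56.6 CPM in the lactate+AZD cell W14. The highest values of Gata6, in CTL32 and W14, were thus in cells that stand apart. Gata6 had a count in 3 of the 4 cells that stand apart (75.0%, interval 19.4% to 99.4%) and in 7 of the other 31 (22.6%, 9.59% to 41.1%). The part of fibroblast or mesothelial RNA in these Gata6 counts was not tested, and Lactic13 had Gata6 counts with no count of any fibroblast or mesothelial marker.

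Peritoneal retinoid genes and other listed inputs to GATA6 were read beside it. Of this list of 13, Rxra, which encodes a retinoid X receptor, had a count in 25 cells, Nfatc1 in 29, and Rarb, a retinoic acid receptor gene of large peritoneal macrophages, in 14. Aldh1a2, which encodes a retinoic acid producing enzyme of mesothelial and fibroblastic cells, had a count in 7 cells. It reached 1032 CPM in W14 and 338 CPM in CTL32, which stand apart, and at most 28.5 CPM in the whole control cells. Wt1, the mesothelial and fibroblastic factor upstream of retinoic acid synthesis, had a count in 5 cells and reached 528 CPM, in CTL30. These 5 cells were the 4 that stand apart and CTL27, where Wt1 was at 3.71 CPM.

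Adgre1 (chr17:57358691-57483527, plus strand), which encodes the adhesion receptor F4/80, was present in every cell but CTL32. The lactate experiment had a lowest, median and highest level of 0, 1178 and 2247 CPM in control cells and 737, 1432 and 2725 CPM in lactate cells. The whole control cells were at 3059.6 and 2298 CPM, the whole lactate-treated cells at 1322, 1618 and 1707 CPM, and the scMeT-seq cells at 1674, 1728, 1328 and 2123 CPM. In the AZD3965 experiment the lactate cells T11, T13, W5, W20 and F18 were at 773, 872, 539.6, 765 and 1856 CPM, and the lactate+AZD cells T10, W10, W14, F8 and F9 at 241, 1108, 177, 103 and 1018 CPM. The lactate+AZD cells thus fell into 3 below every lactate cell and 2 within their range. In the 31 cells that do not stand apart Adgre1 ranged from 103 to 3059.6 CPM.

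Icam2 (chr11:106377656-106388075, minus strand), which encodes an intercellular adhesion molecule, was absent from 5 of 8 control and 3 of 8 lactate cells. Its 3 control values were 148, 34.4 and 52.9 CPM (CTL27, CTL33 and CTL34), and its 5 lactate values ran from 14.7 to 107 CPM. The whole control cells were at 47.0 and 83.8 CPM, above all 3 whole lactate-treated cells, at 24.3, 19.6 and 45.6 CPM, though CTL4 and Lactic7 nearly met. The scMeT-seq cells were at 0, 106, 155 and 115 CPM. Of the 4 cells that stand apart, only Lactic29 had a count of Icam2, at 14.7 CPM, and the endothelial marker list reached at most 120.2 CPM in any cell.

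Timd4 (chr11:46810800-46844332, plus strand), which encodes the phosphatidylserine receptor TIM4 used to take up apoptotic cells, was found at low counts. It was at 15.3 and 42.8 CPM in both whole control cells, at 0, 1.63 and 3.15 CPM in Lactic5, Lactic6 and Lactic7, and at 21.2 CPM in 1 of 4 scMeT-seq cells. In the lactate experiment it had 3 and 2 counts in the control cells CTL30 and CTL33 and 11 and 14 counts in the lactate cells Lactic28 and Lactic30. In the AZD3965 experiment none of the 10 cells had a count, which allows up to 4.16 CPM over the lactate and 5.16 CPM over the lactate+AZD cells. These bounds lie above the 1.70 CPM of the lactate-experiment control cells and the 1.72 CPM of the whole lactate-treated cells, so a difference from those groups is not shown.

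Selp (chr1:164115264-164150026, plus strand), which encodes the adhesion lectin P-selectin, was found in 8 cells, none of which stands apart. These were the controls CTL33, CTL34 and CTL35 (4.58, 38.2 and 119.8 CPM), the whole lactate-treated Lactic5 and Lactic6 (36.4 and 1.63 CPM), the scMeT-seq cell Lactic14 (32.7 CPM), the lactate cell W5 (15.0 CPM) and the lactate+AZD cell F9 (99.6 CPM). The cells with Selp were spread over 5 of the 7 groups. The 8 lactate cells of the lactate experiment and the 2 whole control cells had no count. Of the 8 platelet markers, Pf4 had a count in 32 cells and reached 7958 CPM, whereas the other 7 each reached at most 296 CPM, and at most 4 of the 8 had a count in any cell.

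Prg4 (chr1:150449412-150466165, minus strand), which encodes the secreted lubricating proteoglycan lubricin, ran from 0 to 861 CPM. In the lactate experiment its lowest, median and highest levels were 0, 139 and 497 CPM in control cells and 60.9, 209.97 and 861 CPM in lactate cells. Whole control cells were at 55.2 and 401 CPM, whole lactate-treated cells at 362, 40.8 and 234 CPM, and scMeT-seq cells at 406, 135, 840.3 and 248 CPM. All 10 cells of the AZD3965 experiment were at or below 105 CPM, beside shallower libraries. Among the cells that stand apart Prg4 reached 184 CPM, in Lactic29, well below the highest cells. Over the 16 cells of the lactate experiment Spearman's rho was -0.24 with the summed mesothelial markers and 0.56 with Lyz2. Both values include the cells that stand apart. Most of the 16 cells had no mesothelial count, so the first value rests largely on ties. In the 8 cells without a count of any of the 14 fibroblast and 14 mesothelial markers, Prg4 had a count in 6 and reached 579.8 CPM.

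Fn1 (chr1:71585520-71653200, minus strand), which encodes the extracellular matrix glycoprotein fibronectin, had its 2 highest values in cells that stand apart. In the lactate experiment its lowest, median and highest levels were 881, 2794 and 16841 CPM in control cells and 1602, 3146 and 7717 CPM in lactate cells. The highest control value was that of CTL32, where Fn1 stood at 1605% of Lyz2. The next highest value of all cells was 14178 CPM in W14, at 64.6% of Lyz2, whereas the cell with the next largest ratio, CTL35, was at 21.1% and does not stand apart. CTL30 (3049 CPM) was within the range of the other cells. Spearman's rho between Fn1 and the summed fibroblast markers was 0.76 over the 8 control cells, -0.41 over the 8 lactate cells and -0.20 over the 13 cells of that experiment that do not stand apart.

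Fn1 was nonetheless present where those markers were not. In the 8 cells without a count of any fibroblast or mesothelial marker Fn1 ran from 155 (F9) to 7717 CPM (Lactic28), with a median of 2639 CPM and with Lyz2 at 39680 CPM or more. Over all 31 cells that do not stand apart it ran from 155 to 9239.5 CPM with a median of 2598 CPM.

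**Figure D4:**
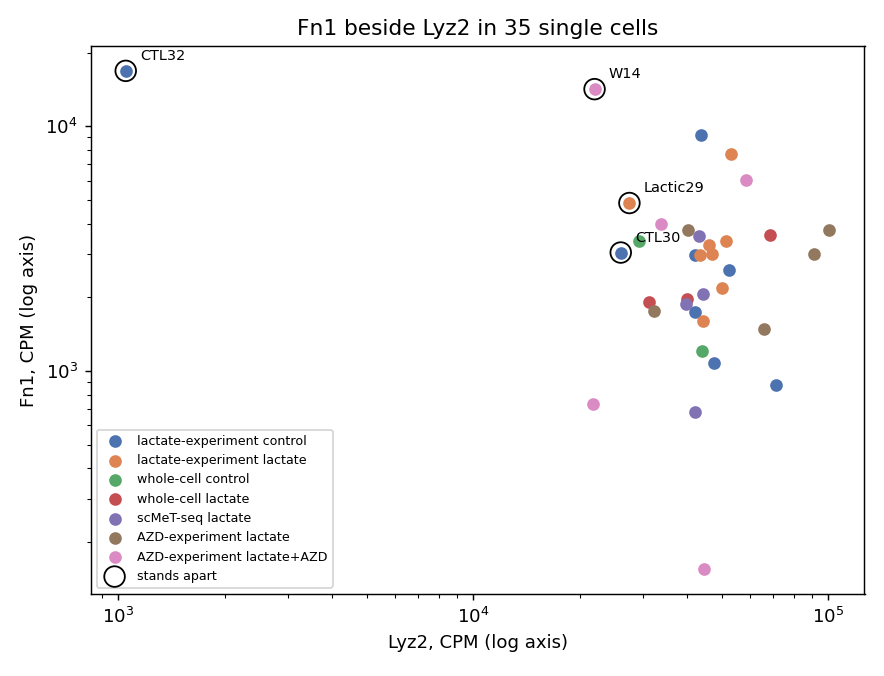
Fn1 against Lyz2 in CPM, both on log axes, with 1 point per cell coloured by group and rings around the 4 cells that stand apart. CTL32 lies alone at 1049 CPM of Lyz2 and 16841 CPM of Fn1, W14 is the second highest for Fn1, and CTL30 and Lactic29 lie among the remaining cells with low Lyz2.

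Serpinb2 (chr1:107511423-107535478, plus strand), which encodes the plasminogen activator inhibitor PAI-2, was the most abundant of the 10 genes per kb after lysozyme, and in the AZD3965 experiment single cells ranged from 0 to 5987 CPM. There the lactate cells F18 and W5 were at 5987 and 4279 CPM, while T11, T13 and W20 were at 12.6, 0 and 0 CPM. The lactate+AZD cell F9 was at 5720.4 CPM and W14 at 382 CPM, while T10, W10 and F8 were at 0, which allows up to 21.2, 20.0 and 51.3 CPM in these cells. In the other experiments all 25 cells had counts. Control cells of the lactate experiment had a lowest, median and highest level of 80.0, 2416 and 10340.3 CPM and lactate cells of 689, 4498 and 9140.2 CPM. In CTL32 Serpinb2 was at 5074 CPM, in the upper part of the control range. Whole control cells were at 2800.04 and 4693 CPM, whole lactate-treated cells at 1043, 1435 and 3546 CPM, and scMeT-seq cells at 468, 1045, 9261 and 5788 CPM.

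The first comparison asked how the genes stood in lactate cells against control cells. Lyz1 was higher after lactate, at 4887 against 1401 CPM over all cells of each group (log2 ratio 1.80, interval 1.75 to 1.85), Timd4 was higher at 8.22 against 1.70 CPM (2.27, 0.86 to 4.02), and Selp was at least 18.6-fold lower, with 0 against 54 counts and a floor of 3 counts over the group. These were the 3 of 10 genes past a fold of 2, 2 higher and 1 lower, where 15.1% of all 11506 genes tested were higher and 22% lower by that fold. The other 7 lay within it, with log2 ratios of 0.92 for Prg4, 0.69 for Icam2, 0.58 for Serpinb2, 0.44 for Adgre1, 0.17 for Lyz2, -0.18 for Gata6 and -0.32 for Fn1. The median log2 ratio was 0.51 over the 10 genes and -0.09 over all genes tested. None of the 10 separated the cells of the groups, and 0% of all genes tested did.

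Some of these ratios changed sign without the cells that stand apart. Without CTL30, CTL32 and Lactic29, the log2 ratio was 1.52 for Lyz1 (interval 1.47 to 1.57), 3.38 for Timd4 (1.37 to 6.50, on 25 against 2 counts), 0.28 for Fn1 and -0.04 for Lyz2. Gata6 then had 12 against 0 counts, all in Lactic33, and was at least 3.32-fold higher, while Selp was at least 21.7-fold lower. So 3 genes were higher and 1 lower, where 19.9% and 18.3% of the 10477 genes tested were. Single cells also moved the called ratios. The log2 ratio of Lyz1 was 3.00 without CTL31, the cell that held 64.4% of the control level, that of Selp was bounded at -2.54 without CTL35, and that of Timd4 was 1.26 without Lactic30, 1.65 without Lactic28 and 3.39 without CTL30. CTL35 held 39 of the 54 Selp counts.

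Among the other 23 genes of the large peritoneal macrophage list, 21 were tested, 5 were higher, 2 were lower and 14 lay within the fold. Of all genes tested, 15.1% were higher and 22% lower. The median log2 ratio was 0.34 over these 21 genes and -0.09 over all genes. The higher genes were Ltbp1, F10, Tgfb2, Aspa and Cebpb, among them the coagulation factor X gene F10 (299 against 132 CPM, log2 ratio 1.18) and the growth factor gene Tgfb2 (67.8 against 15.3 CPM, 2.15). Vsig4, which encodes a complement receptor of resident macrophages, was at 17.1 against 45.2 CPM (-1.40), but CTL34 held 130 of the 133 control counts, and without that cell the log2 ratio turned to 3.89. Rarb was at -1.05 and turned to 0.98 without CTL30. Tgfb2 was the only one of these 7 calls that held with each cell left out in turn. F10 was at 0.91 without Lactic28 and 0.99 without CTL32, Ltbp1 at 0.90 without Lactic28, Cebpb at 0.96 without Lactic31 and 0.95 without CTL28, and Aspa had all 22 of its counts in Lactic32. The most abundant genes of the list, Thbs1, Slpi and Marco, had log2 ratios of 0.34, 0.51 and 0.30, and Laptm5 -0.05. Of the 18 macrophage markers, 16 lay within the fold, Csf1r was higher (1.21) but not without the cells that stand apart, and C1qc was lower (-1.11), though it was within the fold without Lactic27 (-0.99), Lactic33 (-0.95) or CTL28 (-0.91). Of 11 fibroblast markers tested, 10 were lower after lactate, at 1254 against 7125 CPM in sum, where 22% of all genes were lower. Without the cells that stand apart, which were set partly by these same markers, the sums were 307 and 282 CPM. Of 7 then tested, 5 (Col1a1, Col1a2, Sparc, Thy1 and Bgn) were still lower, where 18.3% of all genes were. The other 2, Dcn and Pdgfrb, were higher, where 19.9% of all genes were.

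The second comparison set lactate+AZD against lactate in the AZD3965 experiment, asking what followed the block of lactate transport. Fn1 was higher, at 6072 against 2627 CPM (log2 ratio 1.21, interval 1.13 to 1.29), and Selp was higher on 9 against 2 counts, each in 1 cell (2.48, 0.21 to 5.73). These 2 of 9 genes tested were past the fold and none was lower, where 24.9% of all 8764 genes were higher and 15.6% lower. Timd4 could not be compared. Among the counts of the AZD3965 experiment a value of 2 (6215 entries) was more common than a value of 1 (1914 entries). The cause was not tested, and the interval of Selp, on 9 against 2 counts, can be too narrow. Adgre1, Serpinb2, Lyz1 and Lyz2 were lower by similar amounts within the fold, with log2 ratios of -0.68, -0.66, -0.70 and -0.71, so that relative to Lyz2 Adgre1 stood at 0.03 and Lyz1 at 0.01. Of the rest, Gata6 was at 0.50 (-1.16 to 2.20), Icam2 at -0.34 and Prg4 at -0.03. The median over the 9 genes was -0.34, against 0.17 over all genes. The cells of the 2 groups overlapped for all 9 genes, as for nearly all of the table, where 0.377% of genes did not overlap.

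W14 held 56.5% of the Fn1 level of its group. Without it the log2 ratio of Fn1 was 0.40 (interval 0.30 to 0.50), within the fold, and Gata6 had 0 against 7 counts, too few to test. Adgre1, Serpinb2, Lyz1 and Lyz2 were then at -0.39, -0.40, -0.42 and -0.53. The median over the 8 genes tested was -0.16, against 0.04 over all genes. Selp stayed past the fold (2.88, 0.61 to 6.13), although it had too few counts to test without F9 or W5, so that 1 of 8 genes was higher, where 20.5% of 8153 genes were. The fibroblast markers summed to 18782 CPM in W14 and to 129.6 CPM over the other 4 lactate+AZD cells, against 1619 CPM over the lactate cells, where W5 alone was at 7314 CPM. For Serpinb2, leaving out F9 moved the log2 ratio to -3.81, and leaving out F18 to 0.11. The ratio of Serpinb2 thus turned on either of these cells.

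Of the other large peritoneal macrophage genes, 17 were tested here, 3 were higher, 5 lower and 9 within the fold, where 24.9% of all genes were higher and 15.6% lower, and the median was -0.04 against 0.17 over all genes. The higher genes were Alox15, Naip1 and Nt5e, and the lower ones Cxcl13, Thbs1, Marco, Slpi and Cebpb. Of these 8 calls, 3 held with each cell left out in turn. They were Nt5e (log2 ratio 3.12, on 35 against 5 counts), Cebpb (-2.19, on 3 against 17 counts) and Cxcl13. The call of Alox15 (2.63) was lost without W10, and that of Naip1 (1.26) without any of 4 cells. Cxcl13, the B cell attracting chemokine gene, and Marco, a scavenger receptor gene, had no count in lactate+AZD cells and were at least 14.2-fold and 21.8-fold lower, on 53 and 81 counts in the lactate cells. F18 held 42 and 73 of these counts, and without it Cxcl13 was at least 3.38-fold lower and Marco had too few counts to test. Thbs1 was at 263 against 826 CPM (log2 ratio -1.65), but W5 held 494 of the 595 lactate counts, and without it the log2 ratio turned to 0.61. Slpi was at 382 against 1167 CPM (-1.61), and at -0.91 without T13. Of the macrophage markers, C1qa, C1qb and C1qc were lower, at -1.0, -3.01 and -1.50, and the other 15 lay within the fold. C1qa fell within it without W14 (-0.66) and without any of 5 other cells, and C1qc without W5 (-0.85).

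The third comparison asked whether drawing cytoplasm for metabolome analysis left the genes at the level of whole cells, in 4 scMeT-seq and 3 whole cells, all treated with lactate. Icam2 was at 93.0 against 30.4 CPM (log2 ratio 1.61, interval 1.18 to 2.07), Prg4 at 412 against 203 CPM (1.02, 0.85 to 1.20), Serpinb2 at 4249 against 2094 CPM (1.02, 0.97 to 1.08), and Timd4 at 4.51 against 1.72 CPM on 11 against 3 counts (1.39, -0.53 to 3.87). These 4 of 10 genes were higher by the fold and none lower, where 21.7% of all 9723 genes were higher and 20.6% lower. Adgre1 (0.14), Lyz2 (-0.08), Gata6 (-0.12), Fn1 (-0.21), Lyz1 (0.46) and Selp (-0.65) lay within it. The median was 0.30 over the 10 genes and 0.02 over all genes. Lactic16 held 51.6% of the scMeT-seq level of Prg4 and 55.9% of that of Serpinb2, and without it their log2 ratios were 0.42 and 0.31. The call of Prg4 was also lost without the whole cell Lactic6 (0.51), that of Serpinb2 without Lactic17 (0.80), Lactic5 (0.76) or Lactic6 (0.79), and that of Timd4 without Lactic5 (0.91), while without Lactic14 Timd4 had too few counts to test. Without Lactic7, Timd4 was at 2.32 and Serpinb2 at 1.75. For all 10 genes the cells of the groups overlapped, where 4.77% of all genes did not. With the 2 whole control cells added to the whole cells, Timd4 turned to -1.49 and Gata6 was also past the fold and lower. Of the other 23 large peritoneal macrophage genes, 18 were tested. Naip1, Marco and Klf4 were higher and Cxcl13, Klf2 and Bhlhe40 lower, where 21.7% and 20.6% of all genes were. The other 12 lay within the fold. The median was -0.08, against 0.02 over all genes. Of these 6 calls, 4 held with each cell left out in turn. They were Klf4 (2.21, 26 against 4 counts), Klf2 (0 against 68 counts), Cxcl13 (-2.13) and Bhlhe40 (-1.29). Those of Naip1 and Marco were lost without Lactic16. Of the 18 macrophage markers, 15 lay within the fold, and Mertk (1.01), C1qa (1.07) and C1qc (1.26) were higher, where 21.7% of all genes were. These 3 calls were all lost without Lactic14.

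The fourth comparison set the 3 whole lactate-treated cells against the 2 whole control cells, and it shares those 3 cells with the third. Timd4 was lower, at 1.72 against 26.2 CPM on 3 against 37 counts (log2 ratio -3.93, interval -6.27 to -2.27), Gata6 was lower at 4.02 against 13.5 CPM (-1.74, -3.24 to -0.43) and Icam2 was lower at 30.4 against 61.6 CPM (-1.02, -1.54 to -0.51). Selp was at least 5.13-fold higher, on 19 against 0 counts. So 1 gene was higher and 3 lower of 10, where 15.2% of all 9732 genes were higher and 27.6% lower. Adgre1 (-0.82), Lyz1 (-0.77) and Serpinb2 (-0.76) were lower within the fold, and Prg4 (0.07), Fn1 (0.21) and Lyz2 (0.23) were near level. The median was -0.77 over the 10 genes and -0.20 over all genes. All cells of the groups were separate for Adgre1, Icam2 and Timd4, 3 of 10 genes, and the same held for 21.4% of all genes in this comparison of few cells. Without the whole control cell CTL8 the log2 ratio of Gata6 was -0.55 and that of Icam2 -0.63, while Timd4 stayed at -3.15. Icam2 also lay within the fold without Lactic5 (-0.91) or Lactic6 (-0.76) and with TMM scaling (-0.83), and Selp had too few counts to test without Lactic5. The log2 ratio of Gata6 was -2.64 without CTL4, -2.34 without Lactic6 and -1.09 without Lactic7, and that of Timd4 was -4.64 without CTL4 and -4.86 without Lactic7. The bound of Selp was 1.03 without CTL4, 1.63 without CTL8 and 3.01 without Lactic7.

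**Figure D5:**
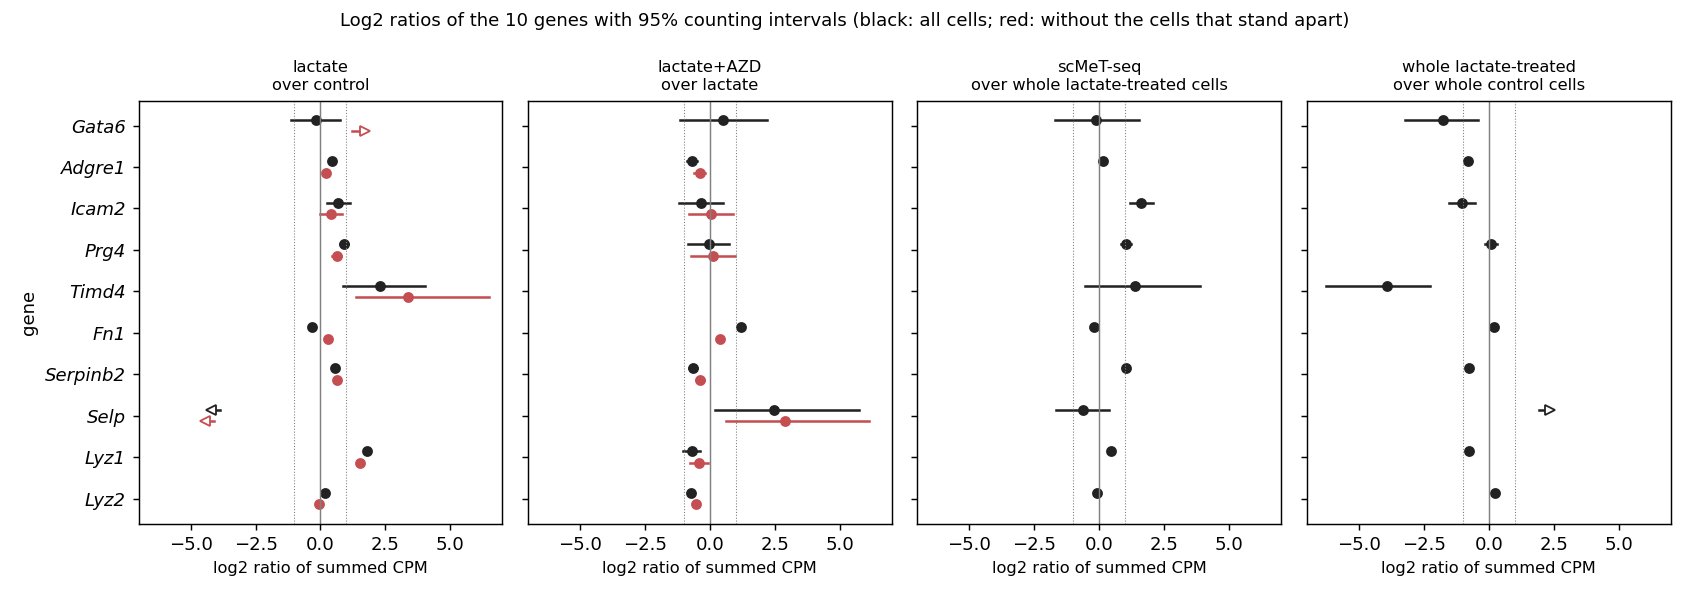
Log2 ratios of summed CPM in the 4 comparisons, with 95% counting intervals as lines and the fold of 2 as dotted lines, for all cells (black) and without the cells that stand apart (red). Open triangles are bounds where 1 group had no count. Timd4 is at 2.27 in the first panel and -3.93 in the fourth, and Fn1 changes from -0.32 to 0.28 in the first and from 1.21 to 0.40 in the second when those cells are left out.

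The lactate comparison was thus made in 2 sets of cells, the lactate experiment and the whole cells, which share no cell but differ in technique, depth and cell number, so that the set of cells and the technique cannot be told apart. Timd4 was higher in the first (2.27) and lower in the second (-3.93), Selp was lower in the first and higher in the second, and Lyz1 was at 1.80 and -0.77, the latter being 0.48 without CTL4. Fn1 was at -0.32 and 0.21, and Lyz2 at 0.17 and 0.23. Whether these ratios differ beyond the variation between cultures could not be tested, since each group counts as 1 sample. For the other 23 large peritoneal macrophage genes in whole cells, 20 were tested, 3 were higher (Cd9, Tgfb2 and Bhlhe40), 4 lower (Rarb, Cxcl13, Marco and Klf4) and 13 within the fold, where 15.2% of all genes were higher and 27.6% lower, and the median was -0.47 against -0.20 over all genes. None of these 7 calls held with each cell left out in turn. Among the 18 macrophage markers in whole cells, Mertk (-2.07), C1qa (-1.68), C1qb (-2.17) and C1qc (-2.55) were lower. The other 14 lay within the fold, where 27.6% of all genes were lower, and these 4 calls held with each cell left out. In the lactate experiment C1qc was also lower (-1.11), and Mertk, C1qa and C1qb lay within the fold. C1qa was lower there too without the cells that stand apart. Cxcl13 was at 265 against 4251 CPM (log2 ratio -4.00) in whole cells and at 948 against 894 CPM (0.09) in the lactate experiment. CTL4 held 5741 of the 6004 Cxcl13 counts of the whole control cells, and without it the log2 ratio was -0.82. Tgfb2 was at 1.17 and 2.15, but the first turned to -0.95 without Lactic5, which held 111 of the 133 counts, and was 0.53 without CTL8.

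The genes whose level ran most like that of a common identity gene were then listed over the 16 cells of the lactate experiment, among 7809 genes with a count in at least 8 of them, by Spearman's rho of log2(CPM + 1). For Adgre1 these were Itpripl1 (0.83), D1Ertd622e (0.83) and Fermt3 (0.82), and for Icam2 Nt5e (0.83), Dip2a (0.83) and Cap1 (0.81). For Prg4 they were Slc25a1 (0.86), Tpd52 (0.85) and Cxcl16 (0.84), and for Fn1 Mdm4 (0.89), Parp1 (0.88) and Blmh (0.87). For Serpinb2 they were Jagn1 (0.81), Chmp6 (0.75) and Hsdl1 (0.75). For Lyz1 they were Dse (0.91), Lrp1 (0.89) and Arid3a (0.88), and for Lyz2 Tmbim6 (0.86), Aldh2 (0.83) and Ctla2b (0.81). Without the cells that stand apart (13 cells) the values ran from 0.69 for Aldh2 with Lyz2 to 0.94 for Lrp1 with Lyz1. No other identity gene was among the 3 nearest of any, and Nt5e, the gene of the ectoenzyme CD73, was the only gene among them from the large peritoneal macrophage list. Each value is the highest of 7809 over few cells of unequal depth and is a description only.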

How the data were processed

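Single peritoneal macrophages were picked by capillary, and 35 cells in 7 groups were assigned from the GEO titles. Per the labels and the study's methods, reads (paired-end, 150 bases) were trimmed with fastp 0.20.0, aligned to mm10 with HISAT2 2.1.0 and assigned to genes with StringTie. The authors deposited raw counts per gene and cell, with no normalization, and gene and cell names (unit other) in separate tables or columns. Totals ran from 58444 to 851417 counts per cell.

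Counts of a group were summed and scaled to CPM by the summed total. Ratios of 2 groups were given for genes with at least 10 counts over both, with an exact conditional binomial 95% interval, and were called past a fold of 2. Where a group had no count, 3 counts over the group took its place. CPM has exact Poisson intervals and shares of cells have exact binomial (Clopper-Pearson) intervals. No test was run, since every group is 1 sample. Levels between genes were compared per kb of GENCODE M21 exons. No cell was removed and no doublet caller was run, since cells were picked singly. Cells were said to stand apart where fibroblast and mesothelial markers reached 10% of macrophage markers. Genes were named by a rule: the 10 genes, up to 4 of the most abundant genes and those past the fold of each list described, and the 3 genes most like each common member. Some genes of these lists were left unnamed for length, and Rxra, Nfatc1, Aldh1a2, Wt1, Cxcl13, C1qa, C1qb, Pf4, and the small peritoneal macrophage and mesothelial marker genes given by their cells with a count were chosen after their values were seen where they fall outside that rule. The 10 genes and all lists were chosen with earlier results of these data known. Intervals were checked for counting error only, on simulated Poisson counts (200 genes changed) without variation between cells or PCR duplicates. For lactate over control (11461 genes), 96.4% of unchanged genes had the true value in the interval. Of the genes simulated at a log2 ratio of 2, 98% were past the fold. Of unchanged genes, 3.4% were past it there and 7.12% for lactate+AZD over lactate. How calls hold under variation between cells cannot be read from this simulation. Tools were Python 3.11.15, numpy 2.4.6, pandas 2.3.3, scipy 1.17.1, matplotlib 3.10.9, R 4.3.3 and edgeR 4.0.16 (TMM factors only). Alternatives were the mean and median of per-cell CPM, TMM, filters of 100 and 1 counts, a fold of 1.5, each cell left out (for genes of the lists, added after seeing the data), scaling to Lyz2 (added after seeing the data), and both lysozyme genes summed.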

Additional observations from a re-analysis of the deposited data

Results flagged for a closer look

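In groups of 4 to 10 cells, the highest or lowest level of a gene was compared with the nearest cell by Dixon's criterion. It flags about 1 in 20 groups by chance where values are normally distributed, which levels with many zeros are not. Of 47 pairs of gene and group, 13 had such a cell, a number that cannot be set against that rate. In 7 of them that cell was the only one with a count, which fixes the flag in advance.

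Gata6 was far above the other cells of its group in CTL32 (60.9 CPM), Lactic13 (14.1 CPM) and W14 (56.6 CPM), each with 0 in the rest of its group, and CTL32 and W14 stand apart by fibroblast and mesothelial markers. Selp was likewise found in single cells, at 32.7 CPM in Lactic14, 99.6 CPM in F9 and 15.0 CPM in W5, and at 119.8 CPM in CTL35, where the next control cell was at 38.2 CPM. Timd4 was at 21.2 CPM in Lactic14 only among the scMeT-seq cells. Lactic14 and F9 do not stand apart, but that rule uses fibroblast and mesothelial markers only. Platelet markers summed to 1518 CPM in Lactic14 and 243 CPM in F9, in each cell from 1 of the 8 markers. Endothelial markers had no count in either cell.

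Adgre1 was at 1856 CPM in F18, the next lactate cell of the AZD3965 experiment being at 872 CPM. F18 was also the highest of all cells for Lyz2, at 100538 CPM. Icam2 was at 148 CPM in CTL27, the next control cell being at 52.9 CPM. Serpinb2 was at 5720.4 CPM in F9, against 382 CPM in the next lactate+AZD cell. Lyz1 was at 6996 CPM in CTL31 against 2365 CPM in the next control cell. Lyz2 was at 27501 CPM in Lactic29, the lowest of the lactate cells, where the next lowest was at 43489 CPM.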

How the results depend on the processing

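No paired analysis was possible because each group counts as 1 sample and no test was run. The number of the 10 genes past the fold moved with most choices. With the median of per-cell CPM, which is 0 for the rare genes, 1 gene was higher and 0 lower after lactate, 0 higher and 1 lower (Adgre1) in lactate+AZD cells, 2 higher (Icam2 and Serpinb2) in scMeT-seq cells, and 0 higher in whole lactate-treated cells. With the mean of per-cell CPM, 1 gene (Selp) was higher in lactate+AZD cells. A filter of 100 counts left 1 higher (Lyz1) and 0 lower after lactate, 1 higher (Fn1) in lactate+AZD cells, and 0 higher and 1 lower (Icam2) in whole lactate-treated cells. With a fold of 1.5, 4 were higher after lactate, 4 lower in lactate+AZD cells (Adgre1, Serpinb2, Lyz1 and Lyz2), 1 lower in scMeT-seq cells and 6 lower in whole lactate-treated cells. Without W14, 1 gene was higher in lactate+AZD cells. With whole control cells added, 2 were higher and 2 lower in scMeT-seq cells, and Timd4 turned to -1.49. Relative to Lyz2, a scaling chosen after seeing the data, 5 were lower in whole lactate-treated cells. These changes follow from fewer genes, another cut or fewer cells as named, and otherwise the cause was not tested. TMM shifted the log2 ratios by at most 0.19, which left Icam2 in whole lactate-treated cells (-0.83) within the fold. With both lysozyme genes summed, the log2 ratios were 0.27, -0.71, -0.07 and 0.20 in the order of the comparisons, against 0.17, -0.71, -0.08 and 0.23 for Lyz2.

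With each cell left out in turn, 2 to 4 genes were higher and 1 to 2 lower after lactate, 1 to 3 higher and 0 to 2 lower in lactate+AZD cells, 2 to 4 higher and 0 to 1 lower in scMeT-seq cells, and 0 to 2 higher and 2 to 4 lower in whole lactate-treated cells. Cells whose absence brought a gene past the fold included CTL32 (Gata6 at a bound of 2.50 without it), Lactic33 (Gata6 at -1.29), CTL27 (Icam2 at 1.70), CTL31 (Prg4 at 1.25) and CTL34 (Serpinb2 at 1.08) after lactate. They included T11 (Gata6 at 1.95), W10 (Adgre1 at -1.29 and Lyz2 at -1.02), T10 (Lyz1 at -1.06) and F9 (Serpinb2 at -3.81) with AZD3965. They included Lactic5 (Selp at 3.12), Lactic14 (Selp at a bound of -2.80) and Lactic6 (Lyz1 at 1.00) in the third comparison, and CTL8 (Prg4 at 1.88), Lactic7 (Serpinb2 at -1.50) and Lactic6 (Lyz1 at -1.32) in the fourth. Depth limits Gata6, Timd4 and Selp, and in the AZD3965 experiment also Icam2 and Prg4, which had 33 counts or fewer per group.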
